A study of Mus musculus with 7 samples.

Results

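Lysophospholipid acyltransferases are the enzymes that put a fatty acid back onto a lysophospholipid, a membrane lipid that has lost 1 of its acyl chains. Transcripts of 10 of these enzymes, Lpcat1, Lpcat2, Lpcat3, Lpcat4, Mboat1, Mboat2, Mboat7, Agpat3, Agpat4 and Agpat5, were examined in mouse dorsal root ganglia after sciatic nerve injury, among 54309 genes measured. The genes were found by symbol, and each symbol matched 1 gene. The group was selected on measured values: Lpcat4 had one of the largest positive differences between ZT20 and ZT8 in these samples, so the Lpcat4 difference is described here without a test, and the other 9 genes were included as the same enzyme class. Values are TPM, a relative abundance scaled by transcript length. All 10 averaged at least 1 TPM over the 7 samples, the limit for testing, which 14800 genes met.

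The ganglia hold the cell bodies of sensory neurons. Both groups were male C57BL/6 mice of 6 to 8 weeks, per the labels, with a sciatic nerve injury 72 h before the lumbar ganglia (L4 to L6) were taken. In the ZT20 group (4 samples) injury and dissection were at Zeitgeber time 20, that is 20 h after lights on, and in the ZT8 group (3 samples) at Zeitgeber time 8. Uninjured ganglia were not analysed here, so no value below is a response to injury. Injury and dissection fell at the same Zeitgeber time, so the effects of either cannot be told apart. The ganglia were dissociated with enzymes, and neurons were enriched on an albumin gradient. Nothing in the labels says whether a sample is 1 mouse or a pool, and p-values measure the spread between these samples.

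Cell membranes are built by de novo synthesis, in which AGPAT enzymes acylate lysophosphatidic acid to phosphatidic acid, the precursor of the other glycerophospholipids. They are then edited in the Lands cycle, in which phospholipase A2 removes a fatty acid and a lysophospholipid acyltransferase adds another, drawn from acyl-CoA. The acyltransferases belong to 2 unrelated protein families. Lpcat1, Lpcat2, Lpcat4, Agpat3, Agpat4 and Agpat5 are of the AGPAT type, and Lpcat3, Mboat1, Mboat2 and Mboat7 are membrane-bound O-acyltransferases (MBOAT type). Neurons use both routes to supply membrane to a growing axon and to keep polyunsaturated chains in their phospholipids.

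The stretch before the transcription start is shown for 3 genes, for Lpcat4 as the gene of the 10 with the largest difference between the groups, for Agpat3 as the only one of the other 9 that passed the test, and for Mboat2 as the gene whose difference was the most negative of the 10. Each is the 250 bases before the start in RefSeq (GRCm38.p6), 5′ to 3′ on the gene's strand, with motif matches in capitals. Lpcat4 lies at chr2:112239591-112239840 (plus strand), Agpat3 at chr10:78351701-78351950 (minus strand) and Mboat2 at chr12:24831349-24831598 (plus strand).
Lpcat4: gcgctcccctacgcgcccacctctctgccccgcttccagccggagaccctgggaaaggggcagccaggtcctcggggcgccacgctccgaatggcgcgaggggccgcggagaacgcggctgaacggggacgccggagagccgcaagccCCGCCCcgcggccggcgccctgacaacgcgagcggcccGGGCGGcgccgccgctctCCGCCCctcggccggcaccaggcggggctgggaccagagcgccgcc
Agpat3: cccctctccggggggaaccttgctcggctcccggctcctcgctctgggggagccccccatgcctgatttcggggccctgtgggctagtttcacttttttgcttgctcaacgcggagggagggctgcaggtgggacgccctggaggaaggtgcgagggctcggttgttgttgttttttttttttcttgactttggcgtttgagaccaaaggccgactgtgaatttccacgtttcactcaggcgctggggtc
Mboat2: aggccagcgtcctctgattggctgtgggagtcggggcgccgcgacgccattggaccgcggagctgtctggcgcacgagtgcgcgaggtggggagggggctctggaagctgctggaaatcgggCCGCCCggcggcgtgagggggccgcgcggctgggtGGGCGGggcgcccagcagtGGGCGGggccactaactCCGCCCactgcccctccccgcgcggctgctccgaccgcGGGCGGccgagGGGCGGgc
Of the 10 genes, 9 had an entry in that table. The motifs searched, on both strands, were the E-box CACGTG, the D-box TTANGTAA and the ROR half-site AGGTCA, through which clock factors act, the GC box GGGCGG and the cAMP response half-site TGACGT. The E-box, D-box and ROR half-site were in 0 of the 9 windows, while 6.02%, 2.06% and 14.0% of all 32851 promoters in the table held them. The GC box was in 7 of the 9 windows and in 32.7% of all promoters, with 3 matches before Lpcat4, 6 before Mboat2 and 0 before Agpat3. The cAMP response half-site was before Lpcat1 and Agpat4 only among the 9 and in 6.47% of all promoters. The Lpcat4 window was 79.6% G and C, against a median of 52.4% over all promoters, and held 38 CpG dinucleotides against a median of 6. The other windows were at 51.2% (Lpcat2) to 77.6% (Mboat2), with 10 to 33 CpG dinucleotides. The GC box counts were not set against promoters of like G and C content. A window without a match says only that these letters are not in it.

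Some libraries stood apart. Sequencing depth is unknown, because TPM sums to 1000000 in every sample. Genes above 0 TPM numbered 24192 to 25238 per sample at ZT20 and 18297 to 22973 at ZT8, with ZT8 replicate 2 the lowest and farthest out on the first principal component. ZT20 replicates 3 and 4 went against their male label, with 4 Y-linked transcripts summing to 0.0162 and 0.00868 TPM where the other 5 samples were at 33.1 to 84.6 TPM. Xist, the transcript of the inactive X chromosome, was at 2.21 and 2.30 TPM there, at 1.08 TPM in ZT20 replicate 2 and at 0.00467 TPM or less in the other 4 samples. Every sample with Xist above 1 TPM was thus at ZT20, so sex and group cannot be fully told apart. In ZT20 replicate 2 the Y-linked sum was 33.1 TPM despite its Xist level. Settings that drop only ZT20 replicates 3 and 4 keep that sample, and so do not remove all Xist signal from the ZT20 group. The 8 sensory neuron markers summed to 15184 to 19217 TPM at ZT20 and 12308 to 18418 TPM at ZT8. Of the 8, Scn9a, a sodium channel gene, was higher at ZT20 (limma adjusted p = 0.0107), and the ranges of the other 7 overlapped. Ganglia without enrichment were not analysed here, so how far neurons were enriched cannot be judged. Red blood cell markers summed to 1210 to 3006 TPM at ZT20 and 494 to 6448 TPM at ZT8, highest in ZT8 replicate 2. Satellite glia markers, which summed to 6958 to 8431 TPM at ZT20 and 11757 to 14450 TPM at ZT8, and B and plasma cell markers (9.20 to 191 TPM and 218 to 612 TPM) ordered the groups without overlap. The labels name the libraries by number at ZT20 and by letter at ZT8, so group and any batch behind those names cannot be told apart.

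Lpcat4 transcripts were near the middle of the tested genes at ZT20 and near the bottom at ZT8. The low place at ZT8 follows in part from how the tested genes were picked. Lpcat4 (ENSMUSG00000027134), which encodes an enzyme that acylates lysophosphatidylethanolamine and lysophosphatidylcholine and is also called Lpeat2 or Agpat7, had levels of 19.98, 10.95, 22.3 and 13.1 TPM in the ZT20 samples (replicates 1 to 4). In the ZT8 samples (replicates 1 to 3) the levels were 1.65, 0.433 and 0.195 TPM. Every ZT20 sample was thus above every ZT8 sample, and the lowest ZT20 value was 6.63 times the highest ZT8 value. Lpcat4 averaged 16.6 ± 5.41 TPM over the ZT20 samples (SD, n = 4) and 0.760 ± 0.781 TPM over the ZT8 samples (SD, n = 3), and the ratio of these means was 21.8. The ratio depended on ZT8 replicate 1, and without that sample it was 52.9. Without any other single sample it was 15.9 to 24.3, and without ZT20 replicates 3 and 4 it was 20.4. On the log2(TPM + 1) scale the difference was 3.36 with a standard error of 0.35. Fewer cells that make the transcript and less transcript per cell cannot be told apart in these bulk samples. The satellite glia sum, which is mostly Apoe (6261 to 7615 TPM at ZT20 and 10623 to 13557 TPM at ZT8), was lower in every ZT20 sample. Of its 5 markers, Apoe and Fabp7 were lower at ZT20 by the test, Glul overlapped, and Kcnj10 and Cdh19 overlapped with positive log2 differences of 0.21 and 0.38. The 4 neutrophil markers summed to 346 to 2193 TPM at ZT20 and 42.7 to 423 TPM at ZT8. Of these, Retnlg was higher at ZT20 (log2 difference 2.20, limma adjusted p = 0.0306), and S100a8, S100a9 and Ly6g overlapped with log2 differences of 2.30, 2.15 and 1.08. The part of either list in the Lpcat4 difference was not tested.

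In percentile rank among the tested genes of each sample, Lpcat4 stood at 46.8 to 60.0 at ZT20 and at 1.55 to 12.6 at ZT8. With a ZT8 mean of 0.760 TPM, Lpcat4 met the testing limit only because of its ZT20 values. A low rank at ZT8 among genes picked by that limit is therefore partly built in. Of the 2219 tested genes with a mean ZT20 level between the lowest and highest ZT20 value of Lpcat4, 7 had a mean under 1 TPM at ZT8, Lpcat4 among them. By log2 difference Lpcat4 was number 7 of the 14800 tested genes. Lpcat4 was chosen for its difference between these groups, so these places only describe it and are no support for a difference. In GENCODE M21 its locus, on chromosome 2, overlaps no other gene and its longest transcript is 2275 nt.

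**Figure D1:**
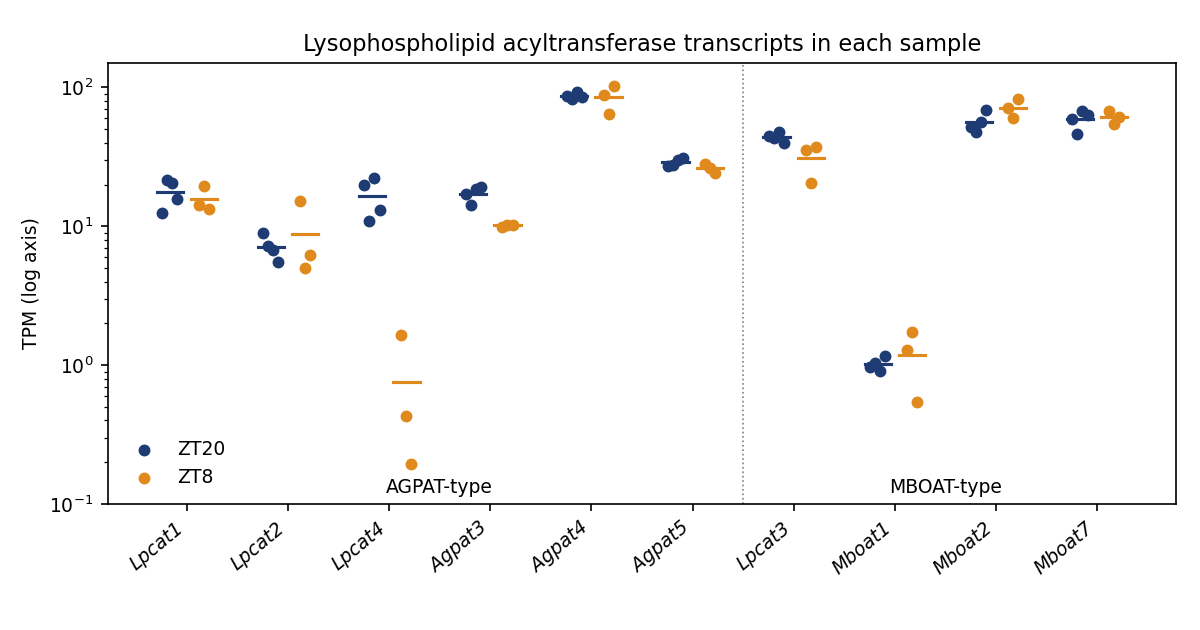
TPM (log axis) of the 10 lysophospholipid acyltransferase genes in each ZT20 sample (blue, 4) and ZT8 sample (orange, 3); points are samples and bars are group means. Lpcat4 is at 10.95 to 22.3 TPM at ZT20 and at 0.195 to 1.65 TPM at ZT8, and the groups overlap in 7 of the other 9 genes.

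The 9 other acyltransferases did not share the Lpcat4 pattern. By limma on log2(TPM + 1), with Benjamini-Hochberg adjustment over all 14800 genes, 1 of the 9 was higher at ZT20 at an adjusted p-value under 0.05 and 0 were lower, while 2 had an unadjusted p-value under 0.05. Among all tested genes 16.4% passed, 12.8% higher and 3.61% lower, so the count of 1 in 9 was close to the background. The split of all passing genes depended on scaling, with 78.1% of them higher in TPM as deposited, 49.3% with median-ratio scaling, 55.7% with quantile normalization and 40.3% once the trend with transcript length was removed. The median log2 difference was 0.057 over the 9 genes and 0.23 over all genes, and 2 of the 9 were above that general median. With median-ratio scaling the median was −0.17 over the 9 genes and 0.033 over all genes, so the 9-gene median changed sign along with a shift of all genes. The 9-gene and all-gene medians were −0.15 and 0.0046 with quantile normalization. With the length trend removed they were −0.26 and −0.0027. Ranges of the groups did not overlap in 2 of the 9 genes, both higher at ZT20, and in 33.2% of all tested genes, 24.5% higher and 8.72% lower.

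Among the AGPAT-type enzymes that acylate lysophosphatidic acid, Agpat3 was the gene that passed. Agpat3 (ENSMUSG00000001211), known for placing polyunsaturated chains on phosphatidic acid, was at 16.9, 14.2, 18.6 and 19.1 TPM in the ZT20 samples and at 9.89, 10.2 and 10.3 TPM in the ZT8 samples. All 4 ZT20 values lay above the ZT8 values, whose coefficient of variation was 2.16%. The difference passed at 0.70 ± 0.16 on the log2 scale (SE, limma adjusted p = 0.0256), and the ratio of mean TPM was 1.70. The call was lost without ZT20 replicate 1, 3 or 4 or ZT8 replicate 1 or 3 (limma adjusted p = 0.0514 to 0.0959), while the difference stayed at 0.65 to 0.71. Without both ZT20 replicates 3 and 4 it was 0.57 (limma adjusted p = 0.312), a setting in which 0 of all tested genes passed. The call was also lost with median-ratio scaling (0.48, adjusted p = 0.0637), quantile normalization (0.40, adjusted p = 0.120) and removal of the length trend (0.13, adjusted p = 0.607), the 3 other scalings used here. With replicate number as a block it was lost as well (0.65, limma adjusted p = 0.104). The longest Agpat3 transcript is 5980 nt, and the tested genes of similar length had a median log2 difference of 0.56.

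Agpat4, a lysophosphatidic acid acyltransferase prominent in brain, had the highest level of the 10 genes in both groups. It was at 86.2, 82.8, 92.3 and 85.6 TPM in the ZT20 samples and at 87.8, 64.3 and 102 TPM in the ZT8 samples. The ranges overlapped, and the log2 difference of 0.057 (95% interval −0.31 to 0.43, limma adjusted p = 0.824) turned negative with median-ratio scaling. Agpat5, a mitochondrial member, was at 27.1 to 31.1 TPM at ZT20 (median 28.9) and at 28.1, 26.2 and 24.1 TPM at ZT8. Its difference of 0.14 (95% interval −0.16 to 0.45, limma adjusted p = 0.470) did not pass, and the sign was negative with median-ratio scaling and quantile normalization. The Agpat5 longest transcript, 10779 nt, is the longest of the 10 genes. With the length trend removed its difference was −0.54 and passed (limma adjusted p = 0.0298).

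The other AGPAT-type enzymes act on lysophosphatidylcholine. Lpcat1, known for making the saturated phosphatidylcholine of lung surfactant, was at 12.4, 21.4, 20.6 and 15.7 TPM at ZT20 and at 14.2, 19.6 and 13.4 TPM at ZT8. The groups overlapped throughout, with a log2 difference of 0.13 (95% interval −0.39 to 0.66, limma adjusted p = 0.710) whose sign turned under all 3 scalings. Lpcat2, which also makes platelet-activating factor in macrophages and neutrophils, was at 8.96, 7.25, 6.79 and 5.57 TPM at ZT20 and at 15.2, 5.01 and 6.24 TPM at ZT8. ZT8 replicate 1 was the high sample, and its group had a coefficient of variation of 63.3%. The log2 difference was −0.15 (95% interval −0.93 to 0.64, limma adjusted p = 0.789) and 0.29 without that sample. Of 7 macrophage markers, 5 (Aif1, Csf1r, Cd68, Cx3cr1 and C1qa) were also at their highest in ZT8 replicate 1, while Lyz2 was highest in ZT20 replicate 1 and Adgre1 in ZT20 replicate 4. The 7 summed to 259 to 586 TPM at ZT20 and 252 to 574 TPM at ZT8. Their part in the Lpcat2 value was not tested.

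Of the MBOAT-type enzymes, Lpcat3 was the one whose groups separated. Lpcat3, which places arachidonate and linoleate on phosphatidylcholine and phosphatidylethanolamine, was at 44.5, 43.4, 47.5 and 39.9 TPM in the ZT20 samples and at 35.5, 20.4 and 37.2 TPM in the ZT8 samples. The lowest ZT20 value was 1.07 times the highest ZT8 value, and ZT8 replicate 2 was far below the other ZT8 samples. The log2 difference was 0.53 (95% interval 0.048 to 1.006) and did not pass (limma adjusted p = 0.116). It was positive in all 16 alternatives, from 0.26 without ZT8 replicate 2 to 0.68, and passed in 0 of them. In GENCODE M21 a gene on the other strand, Emg1, overlaps Lpcat3, and the use of strand in counting is not given in the sources used here.

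Mboat2, which acylates lysophosphatidylcholine and lysophosphatidylethanolamine and is itself listed under the synonym LPCAT4 in RefSeq, went the other way from Lpcat4. Mboat2 was at 51.5, 47.7, 56.1 and 69.3 TPM at ZT20 and at 71.5, 60.4 and 82.0 TPM at ZT8. ZT20 replicate 4 lay inside the ZT8 range, and the other 3 ZT20 samples lay below it. The log2 difference of −0.34 (95% interval −0.72 to 0.039, limma adjusted p = 0.183) did not pass. It was negative in all 16 alternatives, and passed in 2 of them, with median-ratio scaling (−0.57, limma adjusted p = 0.0331) and with the length trend removed (−0.95, limma adjusted p = 0.0133). Mboat7, which attaches arachidonate to lysophosphatidylinositol, was at 46.1 to 67.7 TPM at ZT20 (median 61.7) and at 67.6, 54.3 and 61.7 TPM at ZT8, with a log2 difference of −0.053 (95% interval −0.42 to 0.31, limma adjusted p = 0.836). Mboat1, an acyltransferase for lysophosphatidylserine and lysophosphatidylethanolamine, was at the lower limit of testing, at 0.906 to 1.17 TPM at ZT20 and 1.28, 1.74 and 0.544 TPM at ZT8 (limma adjusted p = 0.865). Tsen34 overlaps Mboat7 on the other strand.

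**Figure D2:**
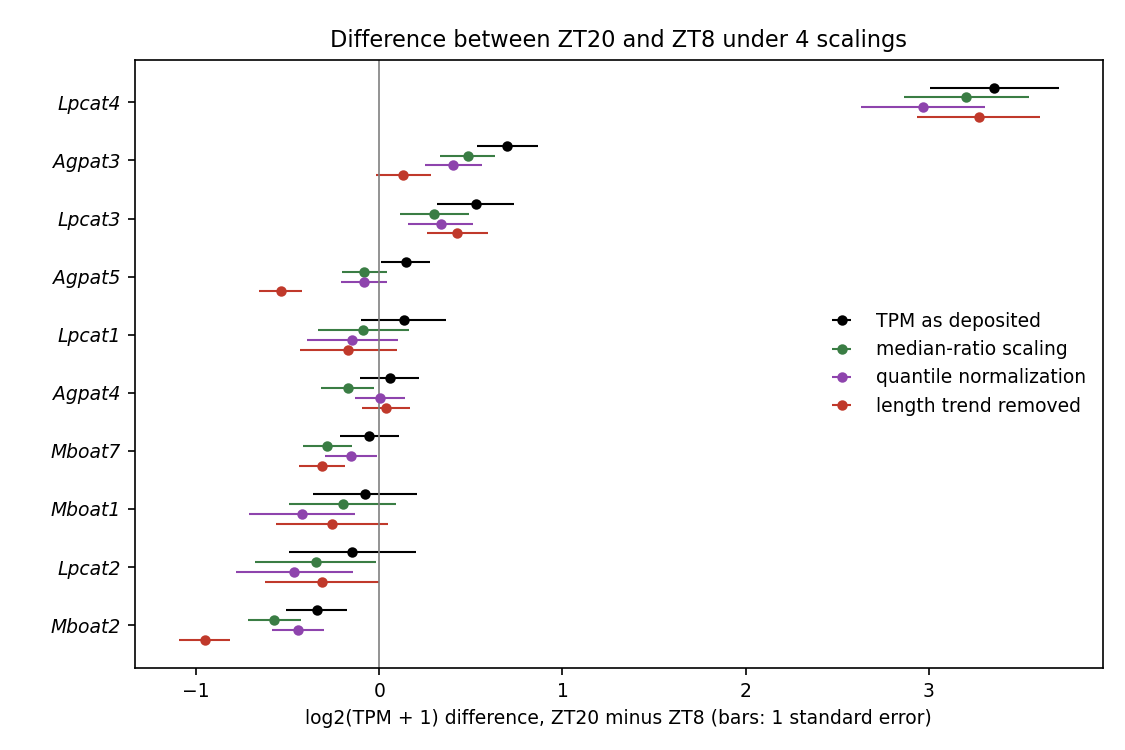
Log2(TPM + 1) difference, ZT20 minus ZT8, with 1 standard error, for the 10 genes in TPM as deposited and under 3 other scalings. Lpcat4 stays between 2.97 and 3.36, Agpat3 falls from 0.70 to 0.13 when the length trend is removed, and Mboat2 is below 0 in each.

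Transcript length moved with the differences. Spearman's rho between log2 difference and length was 0.410 across the 14745 tested genes with a known length; genes are no independent replicates, and the value is a description. In 10 groups of equal size by length, the median log2 difference was lowest, at −0.13, for genes with a median of 1323.5 nt and highest, at 0.69, for those with a median of 7971 nt. Lpcat4 (3.36) and Lpcat3 (0.53) were in the group with a median of 0.079, so both stood above genes of similar length. Mboat2 (−0.34) and Agpat5 (0.14) were in the longest group and stood below its median. With the trend removed the Lpcat4 difference was 3.27.

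**Figure D3:**
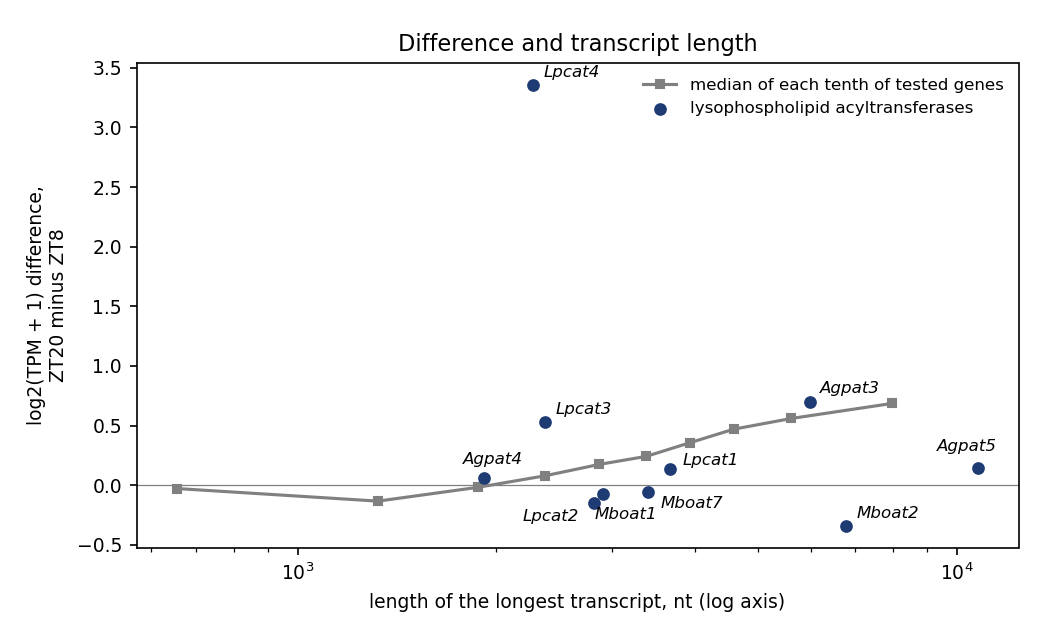
Log2(TPM + 1) difference, ZT20 minus ZT8, against the longest transcript (log axis) for the 10 genes, with the medians of 10 groups of tested genes by length (grey). Agpat3 lies near the grey line, Lpcat4 far above it, and Mboat2 and Agpat5 below it.

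TPM is scaled by transcript length, so levels of different genes can be set side by side. At ZT20 the order of mean TPM was Agpat4 (86.7), Mboat7 (59.3), Mboat2 (56.2), Lpcat3 (43.8), Agpat5 (29.0), Lpcat1 (17.5), Agpat3 (17.2), Lpcat4 (16.6), Lpcat2 (7.14) and Mboat1 (1.02). Ranges overlapped between Mboat7 and both Mboat2 and Lpcat3 and among Lpcat1, Agpat3 and Lpcat4, whose order is therefore not settled. At ZT8 the order was Agpat4, Mboat2, Mboat7, Lpcat3, Agpat5, Lpcat1, Agpat3, Lpcat2, Mboat1 and Lpcat4. Ranges there overlapped among Agpat4, Mboat2 and Mboat7, between Lpcat3 and Agpat5, and between Lpcat2 and both Lpcat1 and Agpat3, so that order is not settled either. Lpcat4 thus went from place 8 to place 10, where its range overlapped that of Mboat1. Within the sum of Lpcat1 to Lpcat4, Lpcat4 made up 23.3%, 13.2%, 23.0% and 17.7% in the ZT20 samples and 2.48%, 0.951% and 0.341% in the ZT8 samples. The 10 genes together came to 334 ± 25.8 TPM in the ZT20 samples (SD, n = 4) and 311 ± 41.9 TPM in the ZT8 samples (SD, n = 3), with overlapping ranges.

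Ratios between genes of 1 sample do not change with a single scaling factor per sample, such as the median-ratio factor. They do change with quantile normalization, which shifts values by their rank in a sample, and with removal of the length trend, which shifts them by transcript length. With the length trend removed, the log2 differences were 0.13 for Agpat3 and 0.036 for Agpat4, against 0.70 and 0.057 in TPM as deposited. TPM ratios, with no pseudocount, were compared for 10 pairs of related enzymes, without Lpcat4, by an exact permutation test (two-sided, smallest possible p 0.0286). This comparison was added after the values of the genes had been seen. The log2 ratio of Agpat3 to Agpat5 was −0.76 ± 0.13 in the ZT20 samples (SD, n = 4) and −1.36 ± 0.14 in the ZT8 samples (SD, n = 3). For Agpat3 to Agpat4 it was −2.34 ± 0.16 and −3.04 ± 0.34, and for Lpcat3 to Mboat7 −0.42 ± 0.25 and −1.02 ± 0.35. In these 3 pairs the ratio was higher in each ZT20 sample than in any ZT8 sample (each exact p = 0.0286, adjusted over the 10 pairs 0.0952). Lpcat3 over Mboat2 also separated the groups, by 0.89 (exact p = 0.0571, adjusted 0.143). The remaining 6 pairs overlapped, with exact p from 0.143 to 0.971. After adjustment 0 of 10 passed, but with so few samples a pair could pass only if at least 6 of the 10 were at the smallest possible p, so this count says little.

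Genes with a pattern like that of Lpcat4 were found by the root mean square difference of log2(TPM + 1), centred on each gene's mean over the 7 samples. The nearest was Edil3, an extracellular matrix ligand of integrins, at a root mean square difference of 0.26, with 66.8 to 102 TPM at ZT20 and 11.9, 9.04 and 6.26 TPM at ZT8. Pank4, a relative of the pantothenate kinases (0.44), Eno2, the neuronal enolase (0.45), BC048403 (0.52) and Gm37065 (0.56) followed. Like Lpcat4, Edil3, Pank4 and Eno2 had their lowest ZT20 value in replicate 2 and their highest ZT8 value in replicate 1. Gm37065 had its highest ZT20 value in replicate 2, and BC048403 its highest ZT8 value in replicate 3. The genes were chosen for a matching profile over these same samples. The measure rests on 7 samples and is dominated by the step between the groups. The nearest of the other 9 acyltransferases, Agpat3, was number 2601 in that order, at 1.38.

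**Figure D4:**
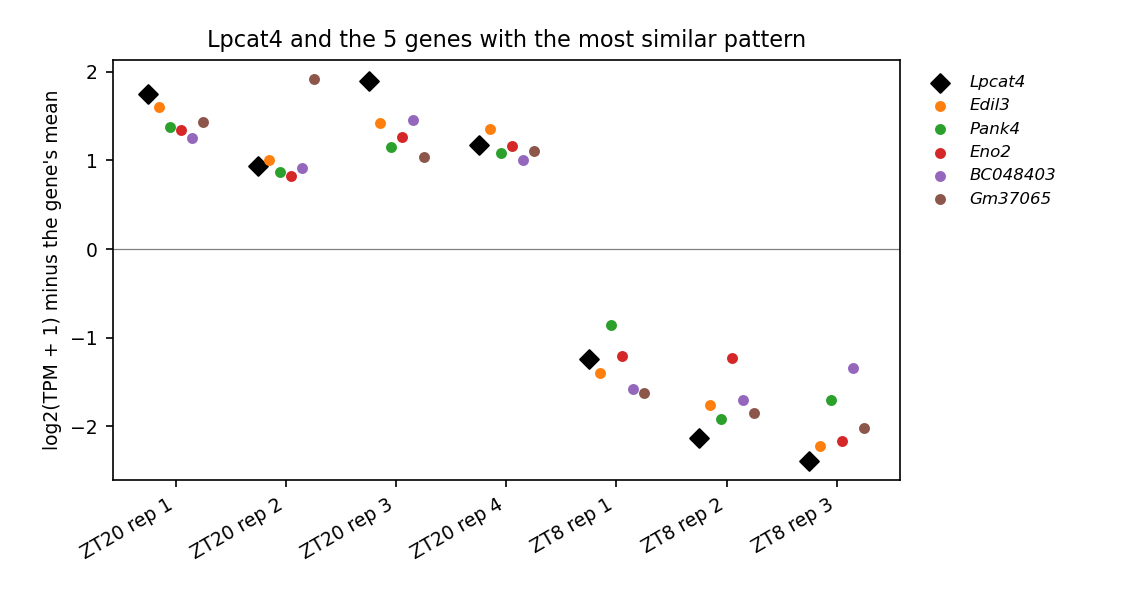
Log2(TPM + 1) minus the mean of each gene over the 7 samples, for Lpcat4 (black diamonds) and the 5 genes with the most similar pattern. All 6 are above 0 in the ZT20 samples and below 0 in the ZT8 samples, with Lpcat4 lowest at ZT20 in replicate 2.

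Other genes of phospholipid metabolism were read out in 5 lists of 82 genes, of which 66 were tested. Of the 66, 11 were higher and 3 lower at ZT20 at a limma adjusted p-value under 0.05, that is 14 of 66 against 16.4% of all genes. The split depended on scaling, with 7 higher and 5 lower with median-ratio scaling, 7 and 4 with quantile normalization, and 2 and 6 with the length trend removed. Among all tested genes the counts were 1128 higher and 1160 lower, 1023 and 814, and 487 and 720 in the same settings. Tested genes numbered 14800, and 14745 with the length trend removed. The median log2 difference was 0.24 over the 66 genes and 0.23 over all genes. Without ZT20 replicates 3 and 4, limma called 0 of the 66 genes and 0 of all genes, with 14 and 2425 at an unadjusted p-value under 0.05.

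Other glycerolipid acyltransferases, the closest relatives of the 10 genes, had the highest median of the lists, at 0.83, with 3 of 8 tested genes higher and 1 lower, where 12.8% of all tested genes were higher and 3.61% lower. With the length trend removed 1 was higher and 2 lower, with quantile normalization 1 and 1, and the list's median was 0.48 to 0.65 under the 3 scalings. Of all 14745 genes tested with the length trend removed, 487 were higher and 720 lower. With quantile normalization 1023 of all 14800 were higher and 814 lower. Lclat1, which acylates lysocardiolipin and lysophosphatidylinositol, averaged 40.6 ± 4.58 TPM over the ZT20 samples (SD, n = 4) and 18.6 ± 2.39 TPM over the ZT8 samples (SD, n = 3) (log2 difference 1.08, limma adjusted p = 0.00573). Its call was kept in every alternative except the one without ZT20 replicates 3 and 4, where the difference was 0.96 and 0 of all tested genes passed. Lpgat1, a lysophosphatidylglycerol acyltransferase (0.91, limma adjusted p = 0.0235), and Gpam, the mitochondrial enzyme that starts glycerolipid synthesis (0.74, limma adjusted p = 0.0446), were also higher. Both were lost with quantile normalization, with the length trend removed and without ZT20 replicate 1, 3 or 4 alone. Both were also lost with no limit on mean TPM (limma adjusted p = 0.0519 and 0.0867) and with replicate number as a block (limma adjusted p = 0.0665 and 0.157). Gpam was also lost with median-ratio scaling and without ZT20 replicate 2 or ZT8 replicate 1 or 3. Tafazzin, the transacylase that remodels cardiolipin (listed as Taz), was lower, with 29.3 ± 4.10 TPM at ZT20 (SD, n = 4) against 46.8 ± 6.78 TPM (SD, n = 3). Its log2 difference was −0.66 (limma adjusted p = 0.0302), and the call was lost without ZT20 replicate 1, 3 or 4 or ZT8 replicate 1 (limma adjusted p = 0.0514 to 0.0977). The Taz call was also lost with no limit on mean TPM (limma adjusted p = 0.0610) and with replicate number as a block (limma adjusted p = 0.0698).

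In the steps that supply the acyltransferases, the counts were near the background, at which 16.4% of all tested genes passed. Among acyl-CoA synthetases 1 of 8 tested genes was higher, Acsl4, which activates arachidonate and other polyunsaturated fatty acids. Acsl4 was at 36.7, 42.9, 41.6 and 42.0 TPM at ZT20 and at 16.2, 14.3 and 12.5 TPM at ZT8, a log2 difference of 1.45 ± 0.15 (SE, limma adjusted p = 0.00205). The groups were far apart, and the call was lost only without ZT20 replicates 3 and 4, where the difference was 1.41 and 0 of all tested genes passed. Among phospholipases A2 and related hydrolases 1 of 15 was higher and 1 lower. Pnpla6, the neuropathy target esterase that hydrolyses lysophosphatidylcholine, was higher (0.94, limma adjusted p = 0.0239). The Pnpla6 call was lost with the length trend removed (0.39, limma adjusted p = 0.201) and without ZT20 replicate 1, 3 or 4 or ZT8 replicate 3 (limma adjusted p = 0.0567 to 0.0820). Plaat3, a phospholipase with acyltransferase activity, was lower, with 7.45 ± 1.21 TPM at ZT20 (SD, n = 4) against 17.8 ± 3.55 TPM (SD, n = 3) (−1.15, limma adjusted p = 0.0107). The Plaat3 call was lost with replicate number as a block (limma adjusted p = 0.0576) and without ZT20 replicates 3 and 4. Of 13 genes of lysophospholipid breakdown, transport and signalling, 1 passed, Ptafr, the receptor of platelet-activating factor, at 1.97 ± 0.602 TPM in the ZT20 samples (SD, n = 4) against 0.379 ± 0.236 TPM (SD, n = 3). Its ZT8 mean is under the 1 TPM limit, so Ptafr entered testing only through the ZT20 samples, and its call is no support for a difference. Without it the lists hold 10 higher genes. The call was lost under all 3 scalings and without any 1 of the ZT20 samples or ZT8 replicate 3.

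De novo phospholipid synthesis had 5 of 22 tested genes higher and 1 lower, against the same 12.8% and 3.61% of all tested genes. The higher genes were Lpin2 (1.31, limma adjusted p = 0.0111) and Lpin1 (0.59, limma adjusted p = 0.0283), phosphatidic acid phosphatases, Pcyt1b of phosphatidylcholine synthesis (0.95, limma adjusted p = 0.0208), and Etnk1 (0.92, limma adjusted p = 0.00531) and Selenoi (0.60, limma adjusted p = 0.0274) of phosphatidylethanolamine synthesis. Lpin1 fell outside the rule for named genes and was named after its values were seen. With median-ratio scaling 3 genes of the list were higher and 2 lower, and with the length trend removed 0 and 2. Of all tested genes, 1128 of 14800 were higher and 1160 lower with median-ratio scaling. With the length trend removed 487 of 14745 were higher and 720 lower. Chpt1, a choline phosphotransferase gene named after its values were seen, was at −0.63 in TPM as deposited (limma adjusted p = 0.0618) and passed as lower under all 3 scalings. None of the 5 higher genes passed with the length trend removed, and Pcyt1b, Selenoi and Lpin1 were also lost without ZT20 replicate 1, 3 or 4. Selenoi was lost without ZT20 replicate 2 and with quantile normalization (limma adjusted p = 0.141) too, and Selenoi and Lpin1 without ZT8 replicate 3 and with median-ratio scaling (limma adjusted p = 0.107 and 0.0751). Ptpmt1, a phosphatase of cardiolipin synthesis, was lower at 31.6 ± 1.21 TPM (SD, n = 4) against 60.5 ± 17.5 TPM (SD, n = 3) (−0.88, limma adjusted p = 0.0170), and passed under all 3 scalings but not without ZT20 replicate 3 (limma adjusted p = 0.0618) or 4 (limma adjusted p = 0.0532).

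**Figure D5:**
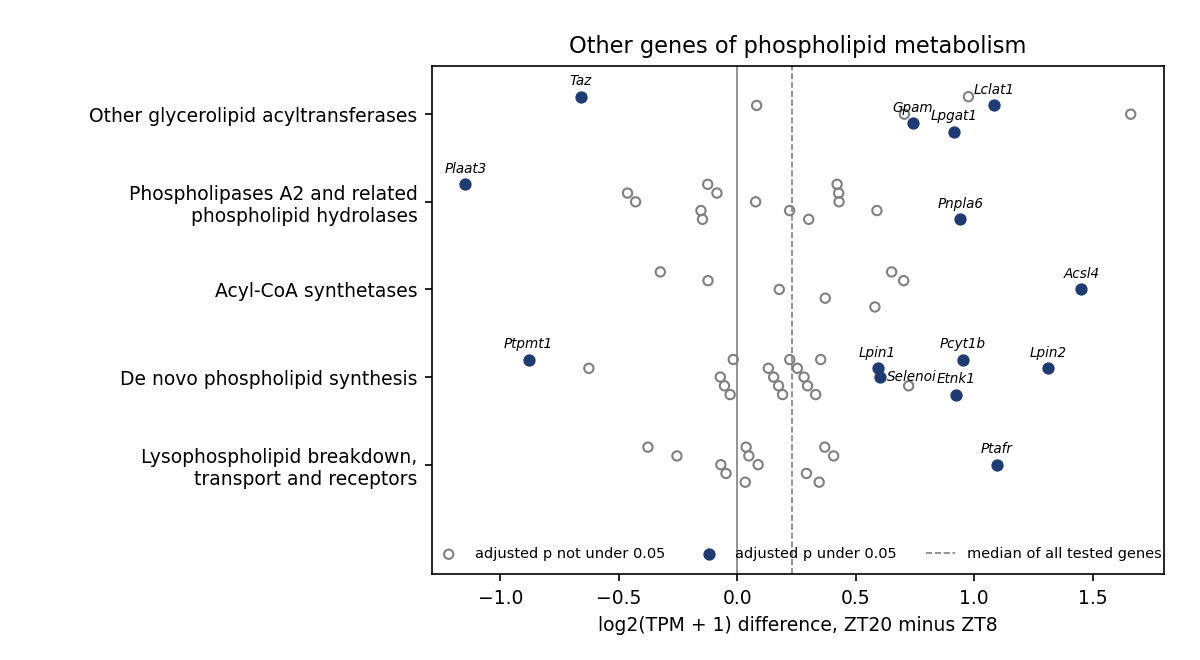
Log2(TPM + 1) difference, ZT20 minus ZT8, of 66 tested genes in 5 lists of phospholipid metabolism; filled points passed an adjusted p-value of 0.05 and the dashed line is the median of all tested genes (0.23). Filled points are 11 higher and 3 lower genes, from Plaat3 at −1.15 to Acsl4 at 1.45.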

How the data were processed

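Per the file header and its column names, the authors deposited 1 table of TPM for 54309 genes with 1 column per sample; 0 columns were left unused. The submitters' processing notes name FastQC 0.11.9, Trim Galore 0.6.6, Salmon 1.6.0, DESeq2 1.34.0 and the build GRCm39, with no role or order. The annotation, the scaling between samples and the use of strand are not given in the sources used here. The deposited TPM keep no depth, so the counting error of each value is unknown.

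Genes averaging 1 TPM or more were analysed as log2(TPM + 1), which understates the change of low genes, in limma 3.58.1 under R 4.3.3 (two-sided, trend in eBayes, no covariate, all 7 samples). P-values were adjusted by Benjamini-Hochberg over all tested genes, with a threshold of 0.05. The fit was tested on simulated data.

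The members and lists were chosen with earlier results of these data known. Named were the 10 members, up to 4 passing, non-overlapping genes per list and direction with the largest differences, and the 5 genes most like Lpcat4. Transcript lengths and overlaps came from GENCODE M21 (GRCm38), whose coordinates are not given, since the build differs. Promoters came from RefSeq. The length trend of each sample was fitted by loess (span 0.3). Figures were drawn with matplotlib 3.10.9.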

Additional observations from a re-analysis of the deposited data

How the results depend on the processing

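Alternatives changed the pseudocount (0.1), the filter (none, or 5 TPM on average), the scaling (median-ratio, quantile, length trend removed), the intensity trend (none), the replicate block and the samples (without each replicate, without ZT20 replicates 3 and 4). For each change the cause was not tested. The Lpcat4 difference was 4.62 with a pseudocount of 0.1 and 3.12 to 3.70 without 1 replicate; its place by level was 6 to 8 at ZT20 and 9 to 10 at ZT8. Passing genes numbered 2433, with 1178 unfiltered, 1207 with the length trend removed, 0 without ZT20 replicates 3 and 4, and 624 to 3055 without 1 replicate (1125, 624 and 819 without ZT20 replicate 1, 3 and 4). Of the 9 other acyltransferases, 1 passed (Agpat3), with 0 under quantile normalization and without ZT20 replicates 3 and 4 (1 at an unadjusted p-value under 0.05 there), 2 with the length trend removed (Mboat2 and Agpat5, both lower), and 0 to 1 without 1 replicate. With median-ratio scaling the 1 was Mboat2. Of the 66 tested list genes 14 passed; the count, not always of the same genes, was 7 unfiltered, 8 with the length trend removed, 0 without ZT20 replicates 3 and 4, and 5 to 15 without 1 replicate (6, 5 and 5 without ZT20 replicate 1, 3 and 4).

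Signs turned for differences that had not passed: Lpcat1 (−0.087 with median-ratio scaling, −0.15 with quantile normalization, −0.17 with the length trend removed), Agpat5 (−0.081, −0.082 and −0.54 likewise), Agpat4 (−0.17 with median-ratio scaling) and Lpcat2 (0.025 without ZT20 replicates 3 and 4). Selenoi, which had passed, was at −0.0087 with the length trend removed. Without 1 replicate, Lpcat2 ran from −0.43 to 0.29, Mboat1 from −0.31 to 0.10, Mboat7 from −0.13 to 0.061 and Agpat4 from −0.13 to 0.20.

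Replicate numbers occur in both groups, but the labels do not say that they pair samples, and deviations of same-numbered samples correlated at −0.014, 0.15 and 0.083. With the replicate block 1174 genes, 0 of the 9 acyltransferases (3 at an unadjusted p-value under 0.05) and 7 list genes passed.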

Other observations

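Agpat1, which encodes the main lysophosphatidic acid acyltransferase of the endoplasmic reticulum, had levels of 52.0, 31.8, 50.7 and 54.1 TPM in the ZT20 samples and 37.6, 2.74 and 22.01 TPM in the ZT8 samples. ZT8 replicate 2 was the low sample, and the other 6 were at 22.01 TPM or more. Its paralog Agpat2 was listed at 0 in ZT8 replicate 2 and was at 1.83 to 5.93 TPM in the other samples. Both genes were named here after their values were seen.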
